A study of Carica papaya with 12 samples.

Results

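The expression of 2 aroma genes of papaya fruit flesh was followed through every isoform: the Trinity gene TRINITY_DN2620_c0_g1, which holds the transcripts annotated as geranyllinalool synthase-like and linalool synthase-like, and the Trinity gene TRINITY_DN4842_c0_g1, annotated as benzyl alcohol O-benzoyltransferase-like. Members were all rows whose identifier, without its isoform suffix, was one of these 2 genes, which gave 23 isoforms of the terpene synthase gene and 3 isoforms of the benzoyltransferase gene among 180368 isoforms of 75259 genes. The fruits came from 2 commercial cultivars, yellow-fleshed ‘1B’, described as bitter with a musty aroma, and red-fleshed ‘RB1’, described as sweet with a floral aroma. The study's discussion also cites sensory analysis that found more floral aroma in ‘1B’. The 12 libraries were 3 fruits each of ‘1B’ ripe, ‘1B’ unripe, ‘RB1’ ripe and ‘RB1’ unripe, and all fruits had received the fungicide prochloraz after harvest.

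Linalool synthase turns geranyl diphosphate into linalool, a monoterpene alcohol with a floral scent. Geranyllinalool synthase turns geranylgeranyl diphosphate into geranyllinalool, a diterpene alcohol that plants use to make a volatile homoterpene. Benzyl alcohol O-benzoyltransferase, an enzyme of the BAHD acyltransferase family, moves a benzoyl group from benzoyl-CoA onto benzyl alcohol and gives the ester benzyl benzoate. Enzymes of these families make scent compounds in flowers and fruits.

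The study's annotation of transcripts lists isoform DN2620_c0_g1_i44 as (E,E)-geranylinalool synthase-like, DN2620_c0_g1_i57 as S-linalool synthase-like from a partial mRNA, and DN4842_c0_g1_i1 as the benzoyltransferase at the papaya locus LOC110825152. The names of i44 and i57 belong to different annotated loci, LOC110817861 and LOC110819841, that the assembly placed under 1 gene. The gene sum of DN2620_c0_g1 therefore cannot separate the enzymes, and reads that match several isoforms were divided among them by estimation, so that the split between isoforms is less certain than the sum. The other 21 isoforms of DN2620_c0_g1 are not named in that annotation.

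Total counts ran from 10949150 in ‘RB1’ ripe replicate 2 to 60099931 in ‘1B’ ripe replicate 2, and a floor of 3 counts was worth 0.034 to 0.232 CPM, the counts scaled to a common library size. Levels are in CPM after scaling by trimmed mean of M-values (TMM), with factors of 1.32 to 1.47 in ‘1B’ ripe, 0.658 to 0.675 in ‘1B’ unripe and 0.929 to 1.18 in ‘RB1’ libraries. ‘RB1’ ripe replicate 3 stood apart: over the 5067 genes called between the stages of ‘RB1’, on a line where the unripe mean is 0 and the mean of the other ripe libraries is 1, it lay at 0.0554, against 0.964 and 1.04 for the other ripe libraries and −0.035 to 0.0494 for the unripe ones. It was left out of the tests, as the study did too, and its values are given apart. The tests therefore had n = 2 for ‘RB1’ ripe. The quasi-likelihood test of edgeR was run over all genes or all isoforms, its p adjusted by Benjamini and Hochberg, and a feature was called when its adjusted p was under 0.05 and its absolute log2 fold change over 1.5. In flesh RNA, fewer cells of a type and less RNA per cell cannot be told apart, and no marker list was available to check the tissue.

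The terpene synthase gene was low in unripe ‘1B’ fruit and several times higher in the 3 other groups. Its gene sum was 157, 144 and 270 CPM in the 3 ‘1B’ ripe libraries, against 56.3, 48.7 and 48.9 CPM in the 3 ‘1B’ unripe libraries. In ‘RB1’ it was 260 and 257 CPM in ripe replicates 1 and 2, against 273, 297 and 305 CPM in the unripe libraries. The 3 ‘1B’ unripe libraries lay below all others without overlap, while ‘1B’ ripe replicate 3 lay at the level of ‘RB1’ fruit and the other ‘1B’ ripe libraries between. In the RNA quality report of the study, the same ‘1B’ unripe samples also stand apart, with a higher quality score and a lower share of the smallest ribosomal RNA than all other samples, and the part of RNA quality in the differences of ‘1B’ unripe fruit was not tested. ‘RB1’ ripe replicate 3 held 1060 CPM, the highest level of the 12 libraries and more than 3 times that of any other.

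**Figure D1:**
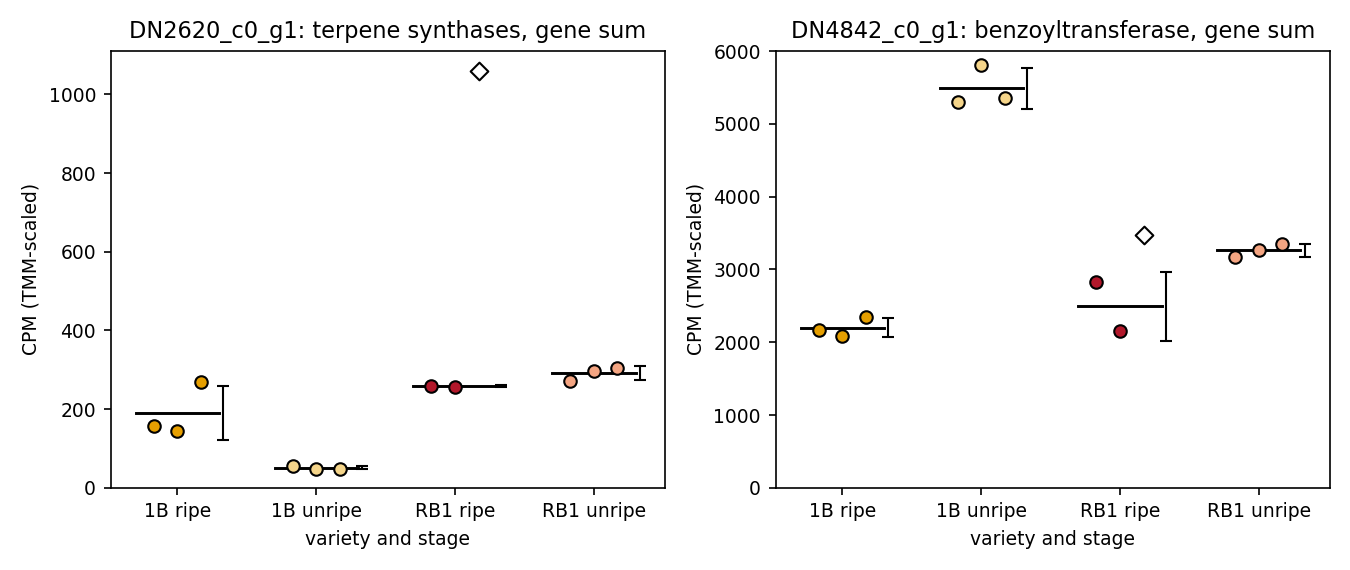
Gene sums of the terpene synthase gene (left) and the benzoyltransferase gene (right) in TMM-scaled CPM, by variety and stage. Points are libraries, lines are means and bars are SD; the open diamond is ‘RB1’ ripe replicate 3, left out of mean and SD. The terpene synthase gene lies at 48.7 to 56.3 CPM in ‘1B’ unripe fruit and at 144 CPM or more elsewhere, and the benzoyltransferase gene is highest in ‘1B’ unripe fruit, at 5297 to 5815 CPM.

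In unripe fruit the question was how the varieties differ before ripening. DN2620_c0_g1 averaged 51.3 ± 4.35 CPM in ‘1B’ and 292 ± 16.96 CPM in ‘RB1’ (SD, n = 3 each), a log2 fold change of −2.56 (SE 0.08, adjusted p = 1.84e-16 by edgeR's quasi-likelihood test), 5.9-fold lower in ‘1B’. Of all genes tested in unripe fruit, 15.1% were called, and 7.28% were called lower in ‘1B’. The call held without each library in turn, with log2 fold changes of −2.60 to −2.49.

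In ripe fruit the varieties overlapped. DN2620_c0_g1 averaged 190 ± 69.3 CPM in ‘1B’ (SD, n = 3) and 258 ± 1.90 CPM in ‘RB1’ (SD, n = 2), with a log2 fold change of −0.44 (SE 0.20, adjusted p = 0.0657 by the same test). In this comparison 29.5% of all tested genes were called. On the log2 scale of TMM-scaled TPM, the length-normalized level of the same quantification, limma gave 0.10 (adjusted p = 0.747), the opposite sign. That level is also scaled between libraries otherwise than CPM. The values on counts were all negative, and they passed on p alone, short of the fold threshold, with RLE size factors (−0.50, adjusted p = 0.0411), in 1 fit of all 4 groups (−0.38, adjusted p = 0.0494) and without ‘1B’ ripe replicate 3 (−0.68, adjusted p = 1.15e-06). With ‘RB1’ ripe replicate 3 kept, the value was −1.49 (adjusted p = 0.0972).

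Through ripening, DN2620_c0_g1 rose in ‘1B’ by 1.87 on the log2 scale (SE 0.18, adjusted p = 3.34e-07, edgeR), 3.65-fold, and its log2 fold change in ‘RB1’ was −0.20 (SE 0.10, adjusted p = 0.115). The background of calls was 25.8% of genes in ‘1B’, with 15.7% called higher in ripe fruit, and 19.3% in ‘RB1’. The difference between the 2 ripening responses was itself called, at 2.12 on the log2 scale (SE 0.23, adjusted p = 1.73e-09, edgeR), in a test that called 33.2% of genes. Without ‘1B’ ripe replicate 3 the rise in ‘1B’ was 1.499 with an adjusted p of 4.72e-12, just under the fold threshold. With ‘RB1’ ripe replicate 3 kept, the change in ‘RB1’ was 0.86 (adjusted p = 0.397) and the difference between the responses was 1.04 (adjusted p = 0.216), no longer called.

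Levels per transcript length were compared as TMM-scaled TPM. DN2620_c0_g1 stood at 75.3, 71.5 and 133 TPM in ‘1B’ ripe fruit, against 16.2, 13.3 and 14.1 TPM in ‘1B’ unripe fruit. In ‘RB1’ it stood at 77.2 and 90.5 TPM in ripe fruit, with 347 TPM in replicate 3, against 101.2, 109 and 108 TPM in unripe fruit. By TPM it ranked 306th to 512th of 75259 genes in ‘1B’ ripe fruit, 2282nd to 2636th in ‘1B’ unripe fruit, 389th and 478th in the 2 ‘RB1’ ripe libraries, and 347th to 373rd in ‘RB1’ unripe fruit. In ‘RB1’ ripe replicate 3 its rank was 106.

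Of the 23 assembled isoforms of DN2620_c0_g1, 9 were at a count of 0 in every library and 14 had counts. Isoforms i31, i48 and i57 were the 3 found in all 12 libraries. The main isoform was i48, which the study's annotation does not name. It stood at 117, 105 and 198 CPM in ‘1B’ ripe fruit, against 28.7, 23.7 and 29.2 CPM in ‘1B’ unripe fruit. In ‘RB1’ it stood at 165 and 151 CPM in ripe fruit, with 868 CPM in replicate 3, against 195, 207 and 227 CPM in unripe fruit. As for the gene sum, the ‘1B’ unripe libraries lay below all others.

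Isoform DN2620_c0_g1_i48 was 8.01-fold lower in ‘1B’ than in ‘RB1’ unripe fruit (log2 fold change −3.001, SE 0.11, adjusted p = 0.000113, edgeR over all isoforms). It rose 5.54-fold with ripening in ‘1B’ (2.47, SE 0.27, adjusted p = 0.00224), and its ripening responses differed between varieties by 3.08 (SE 0.34, adjusted p = 0.000413). The last of these calls was lost with ‘RB1’ ripe replicate 3 kept, at 1.59 with an adjusted p of 0.315, where 4.69% of all isoforms were called. In ripe fruit the log2 fold change of i48 between varieties was −0.05 (adjusted p = 0.949), and with ripening in ‘RB1’ it was −0.43 (adjusted p = 0.0816).

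The share of the gene's counts in i48 was 74.5, 73.2 and 73.5% in ‘1B’ ripe fruit, against 50.96, 48.6 and 59.6% in ‘1B’ unripe fruit. In ‘RB1’ it was 63.5 and 58.7% in ripe fruit, with 81.8% in replicate 3, against 71.6, 69.7 and 74.6% in unripe fruit. The counting interval in replicate 3 was 81.5 to 82.1% (Wilson, 95%), and such intervals cover counting error only. The ‘1B’ unripe libraries held the lowest shares of i48, although ‘RB1’ ripe replicate 2 lay within their range.

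**Figure D2:**
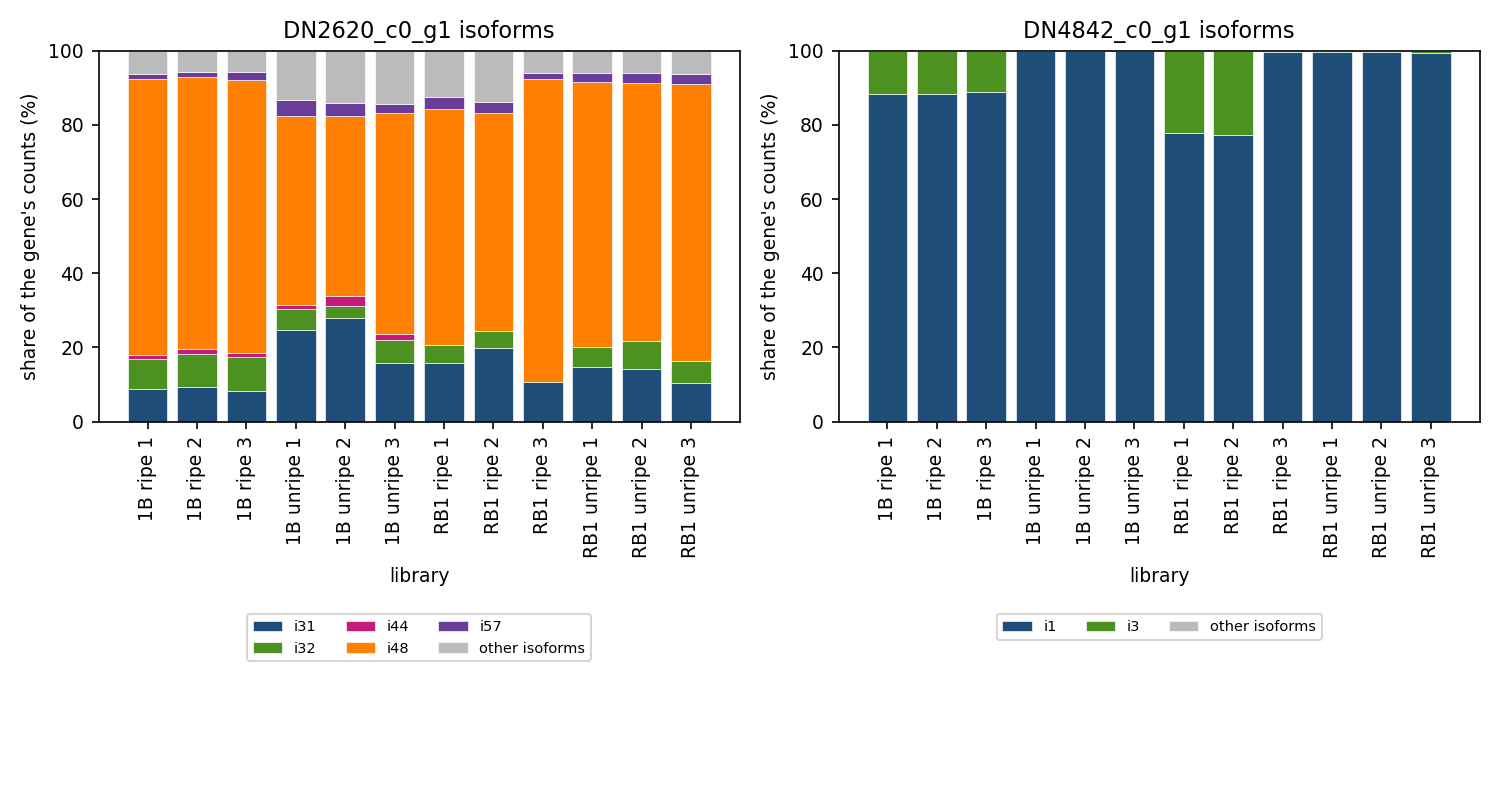
Share of each gene's counts held by its isoforms, in percent, for each of the 12 libraries (bars); grey is the sum of isoforms not named in the legend. In the terpene synthase gene (left) i48 holds 48.6 to 59.6% in ‘1B’ unripe fruit and 58.7% or more elsewhere; in the benzoyltransferase gene (right) i3 is visible in ‘1B’ ripe libraries and in ‘RB1’ ripe replicates 1 and 2.

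Isoform i31 was at 13.8, 13.3 and 22.2 CPM in ‘1B’ ripe fruit and 13.9, 13.6 and 7.77 CPM in ‘1B’ unripe fruit. In ‘RB1’ it was at 41.3 and 51.3 CPM in ripe fruit, with 112 CPM in replicate 3, and at 40.1, 42.5 and 31.97 CPM in unripe fruit. All ‘RB1’ libraries lay above all ‘1B’ libraries. DN2620_c0_g1_i31 was lower in ‘1B’ unripe fruit, with a log2 fold change of −1.75 (SE 0.26, adjusted p = 0.00679, edgeR), and without ‘1B’ unripe replicate 3 the value was −1.4977, just inside the fold threshold. In ripe fruit it was −1.35 (SE 0.28, adjusted p = 0.0359), short of the fold threshold, where 19.2% of all isoforms passed on p alone, and with ‘RB1’ ripe replicate 3 kept it was called, at −2.04 (adjusted p = 0.044). With ripening in ‘1B’ the log2 fold change of i31 was 0.59 (adjusted p = 0.227). In ‘1B’ its share was 8.79, 9.23 and 8.23% in ripe fruit, against 24.7, 28.03 and 15.9% in unripe fruit, and in the test of isoform usage given further on neither i31 (adjusted p = 0.0607) nor i48 (0.896) passed there.

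Isoform i57, named S-linalool synthase-like, held a small part of the gene. It stood at 2.07, 2.08 and 5.96 CPM in ‘1B’ ripe fruit, against 2.38, 1.75 and 1.12 CPM in ‘1B’ unripe fruit. In ‘RB1’ it stood at 8.32 and 7.72 CPM in ripe fruit, with 17.8 CPM in replicate 3, against 6.25, 7.66 and 8.34 CPM in unripe fruit. All ‘RB1’ libraries lay above all ‘1B’ libraries, although ‘1B’ ripe replicate 3 came near the lowest ‘RB1’ value. DN2620_c0_g1_i57 was 4.4-fold lower in ‘1B’ than in ‘RB1’ unripe fruit (log2 fold change −2.14, SE 0.32, adjusted p = 0.00705, edgeR), and the difference in ripe fruit was −1.12 (SE 0.57, adjusted p = 0.253). The study had listed i57 for a difference between these ripe libraries. By the study's qPCR of ripe fruit, cpLIS, the target with the annotation of i57, was significantly higher in ‘RB1’, the same direction. Which isoforms the cpLIS primers amplify was not tested here.

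The share of i57 in the gene's counts was 1.32 to 2.21% in ‘1B’ ripe fruit and 2.29 to 4.22% in ‘1B’ unripe fruit, and in ‘RB1’ it was 3.00 and 3.20% in ripe replicates 1 and 2 and 2.29 to 2.74% in unripe fruit. The effective length of i57, read from the ratio of counts to TPM, was 27.2% of that of i48. Per length, its mean share was therefore larger: 5.32% in ‘1B’ ripe, 10.8% in ‘1B’ unripe, 10.2% in the 2 ‘RB1’ ripe libraries and 8.26% in ‘RB1’ unripe fruit.

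Isoform i44, named geranyllinalool synthase-like, was found in every ‘1B’ library and in no ‘RB1’ library. Its levels were 1.81, 2.12 and 3.14 CPM in ‘1B’ ripe fruit, against 0.603, 1.24 and 0.782 CPM in ‘1B’ unripe fruit, and its count was 0 in all 6 ‘RB1’ libraries. Against a floor of 3 counts over the ‘RB1’ group, DN2620_c0_g1_i44 was 49.3-fold higher in ‘1B’ ripe fruit (adjusted p = 0.0144, edgeR). In ‘1B’ unripe fruit it was 37.8-fold higher (adjusted p = 0.00889, edgeR). The counts of 0 are estimates from divided reads, so these folds are not lower bounds. Isoform i44 passed the filter on low counts only through ‘1B’, which fixed the direction of both tests. The study also listed i44 for a difference between these ripe libraries, so its p there is not independent evidence. The 2 calls were lost without ‘1B’ ripe replicate 1 (adjusted p = 0.0567) and without ‘1B’ unripe replicate 3 (adjusted p = 0.0538). Within ‘1B’, i44 was 2.91-fold higher in ripe than in unripe fruit (log2 fold change 1.54, SE 0.40, adjusted p = 0.0377), a call that did not survive leaving out any of 5 of the 6 libraries, with adjusted p up to 0.126. Isoform i44 held 1.07 to 2.55% of the gene's counts in the ‘1B’ libraries. In ripe fruit the study's qPCR went the other way: cpGES, its target with the annotation of i44, was significantly higher in ‘RB1’ than in ‘1B’. Which isoforms those primers amplify was not tested here.

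Isoform i26 showed the opposite presence. It stood at 2.30 and 2.98 CPM in ‘RB1’ ripe replicates 1 and 2, at 11.2 CPM in replicate 3 and at 3.66, 1.51 and 3.93 CPM in ‘RB1’ unripe fruit, and its count was 0 in all 6 ‘1B’ libraries. Against a floor of 3 counts over the ‘1B’ group, DN2620_c0_g1_i26 was 211-fold lower in ‘1B’ ripe fruit (adjusted p = 0.0208, edgeR). In ‘1B’ unripe fruit it was 112-fold lower (adjusted p = 0.00669, edgeR). These folds too rest on estimated counts of 0 and are not lower bounds. Isoform i26 passed the filter on low counts only through ‘RB1’, which fixed the direction of both tests. In ripe fruit the adjusted p was 0.0751, 0.0932 and 0.0532 without ‘RB1’ ripe replicate 1, ‘RB1’ ripe replicate 2 and ‘1B’ ripe replicate 1. In ‘RB1’, ripening gave i26 a log2 fold change of −0.21 (adjusted p = 0.907).

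Isoform i32, like i48, was lowest in ‘1B’ unripe fruit among the libraries tested. It ranged over 12.7 to 24.7 CPM in ‘1B’ ripe fruit, against 1.58 to 3.26 CPM in ‘1B’ unripe fruit, and over 11.7 to 12.4 CPM in ‘RB1’ ripe replicates 1 and 2, against 14.6 to 22.1 CPM in ‘RB1’ unripe fruit. In unripe fruit DN2620_c0_g1_i32 was lower in ‘1B’ by a log2 fold change of −2.85 (adjusted p = 0.00341, edgeR), and it rose by 2.77 with ripening in ‘1B’ (adjusted p = 0.006). Its ripening responses differed between varieties by 3.57 (adjusted p = 0.00287), which was not called with ‘RB1’ ripe replicate 3 kept (4.003, adjusted p = 0.258), a library in which i32, i9 and i29 had counts of 0.

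Some isoforms were counted in place of each other from library to library within a group. Here too the counts of 0 are estimates from divided reads, and the pair below was picked after all pairs of isoforms with counts were seen. Isoforms i50 and i54 were never found in the same library, and 1 or the other was present in each of the 12, with a summed level of 2.70 to 19.9 CPM. Isoform i54 was the one present in ‘1B’ unripe replicate 3, ‘RB1’ ripe replicates 1 and 3 and ‘RB1’ unripe replicate 3. The last 3 of these libraries were also the only ones with counts of i13 and i33. The summed share of i50 and i54 was 1.88 to 2.503% in ‘1B’ ripe fruit, against 9.48 to 12.2% in ‘1B’ unripe fruit. Isoform i50 was not called in any of the 5 comparisons, and i54 was not called in ‘RB1’ ripening or the interaction and did not pass the filter on low counts in the others.

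**Figure D3:**
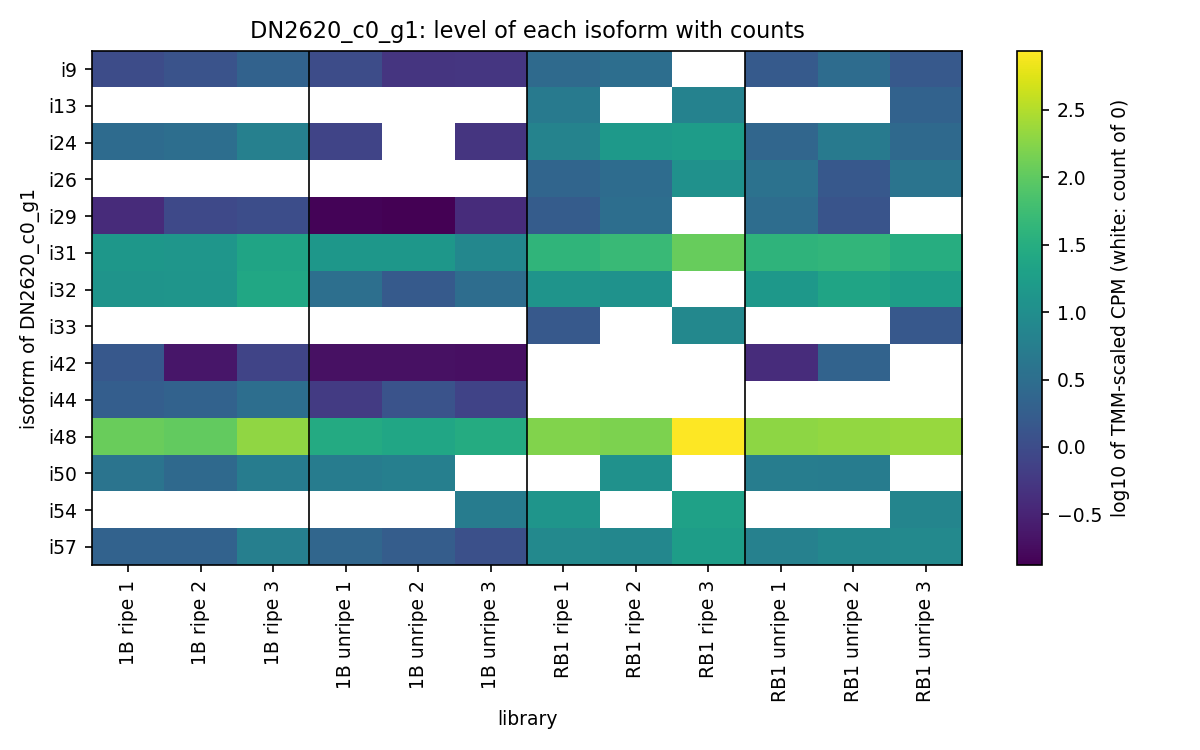
Level of the 14 isoforms of the terpene synthase gene that had counts, as log10 of TMM-scaled CPM (colour), in each of the 12 libraries (columns, by variety and stage). White cells are counts of 0: i44 is white in the 6 ‘RB1’ libraries, i26 in the 6 ‘1B’ libraries, and i50 and i54 fill each other's gaps.

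Counted over the gene, 1 isoform was called higher (i44) and 1 lower (i26) in ‘1B’ among 11 tested in ripe fruit, where 16.3% of all isoforms were called. In unripe fruit 1 was higher (i44) and 5 were lower (i26, i31, i32, i48 and i57) among 10 tested, against 12.8% of all isoforms. In both comparisons of varieties, i44 and i26 were tested only through the variety that held them, so their direction was fixed in advance. With ripening, 3 were higher in ‘1B’ (i32, i44 and i48) among 10 tested and none was called in ‘RB1’ among 13 tested, against 18.8% and 4.79% of all isoforms. Of those 13, edgeR gave 3 an unadjusted p under 0.05, and DESeq2 called 2 isoforms of both genes together, where it called 14% of all isoforms. The interaction called i32 and i48 among 14 tested, where 8.9% of all isoforms were called.

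Whether the isoforms divided the gene differently was tested with edgeR's diffSpliceDGE over all genes with several tested isoforms. The gene test for DN2620_c0_g1 gave an adjusted p of 0.000411 between varieties in ripe fruit and 0.00171 in unripe fruit, where 28.7% and 22.4% of genes passed. The isoforms that departed from the rest of the gene were led by i44 and i26: in ripe fruit their log2 differences from the gene were 10.43 (adjusted p = 0.00721) and −9.95 (adjusted p = 0.00109), and in unripe fruit they were 10.69 (adjusted p = 0.00125) and −7.36 (adjusted p = 0.0268). These values depend on the prior count, since 1 variety was at 0, and their direction was fixed by which variety let the isoform pass the filter. In ripe fruit i42, at 0 in ‘RB1’ ripe replicates 1 and 2, also passed (8.94, adjusted p = 0.0376, diffSpliceDGE). No isoform with counts in both compared groups passed alone between varieties. The gene tests include the isoforms at 0, so they cannot show whether isoforms present in both varieties divided the gene differently. In unripe fruit the gene test did not pass under a filter of 1 CPM in 2 libraries (adjusted p = 0.216) or without ‘RB1’ unripe replicates 1 or 2 or ‘1B’ unripe replicates 1 or 2 (0.184 to 0.274). Between stages the gene test gave adjusted p of 0.0935 in ‘1B’ and 1 in ‘RB1’, where 27% and 8.41% of genes passed. In ‘1B’ it passed with the filter of 1 CPM (adjusted p = 0.0381) and without ‘1B’ unripe replicate 3 (0.00667).

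The benzoyltransferase gene was abundant in all groups and highest in ‘1B’ unripe fruit. Its gene sum was 2164, 2087 and 2344 CPM in ‘1B’ ripe fruit, against 5297, 5815 and 5352 CPM in ‘1B’ unripe fruit. In ‘RB1’ it was 2828 and 2156 CPM in ripe fruit, with 3480 CPM in replicate 3, against 3166, 3269 and 3347 CPM in unripe fruit. The 3 ‘1B’ unripe libraries, those apart in RNA quality, lay above all others, and ‘1B’ ripe and ‘RB1’ ripe libraries overlapped. It took 0.254 to 0.393% of all counts in each library, a narrower range than in CPM, since the TMM factors of ‘1B’ ripe and ‘1B’ unripe libraries lie on opposite sides of 1.

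No comparison called the gene sum of DN4842_c0_g1, because its differences, although past the threshold on p in 4 of 5 tests, were under the fold threshold. With ripening in ‘1B’ it was 2.53-fold lower, at 2198 ± 132 CPM in ripe and 5488 ± 284 CPM in unripe fruit (SD, n = 3 each; log2 fold change −1.34, SE 0.10, adjusted p = 2.81e-08, edgeR). With ripening in ‘RB1’ the log2 fold change was −0.42 (SE 0.14, adjusted p = 0.0141), and with ripe replicate 3 kept it was −0.20 (adjusted p = 0.669). The difference between the responses was −0.88 (SE 0.20, adjusted p = 0.000512). By adjusted p alone, 66.9% of genes passed in ‘1B’, 51.8% in ‘RB1’ and 50.2% in the interaction.

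Between varieties, DN4842_c0_g1 was 1.62-fold higher in ‘1B’ than in ‘RB1’ unripe fruit (log2 fold change 0.70, SE 0.10, adjusted p = 6.06e-06, edgeR), where 57.1% of genes passed on p alone. In ripe fruit the log2 fold change was −0.18 (SE 0.23, adjusted p = 0.523), where 55.4% passed. The ripe difference changed sign with the scaling and without ‘RB1’ ripe replicate 1 (0.09). Scaled by library size alone, which moved the median of all genes from 0.215 to 1.28 in the ripening of ‘1B’ and from −0.0669 to −0.578 in unripe fruit, the fall in ‘1B’ was −0.27 (adjusted p = 0.0213), the unripe difference 0.18 (adjusted p = 0.125) and the interaction −0.08 (adjusted p = 0.688), and the rise of DN2620_c0_g1 in ‘1B’ was 2.93.

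Per length, DN4842_c0_g1 stood at 1003, 988 and 1081 TPM in ‘1B’ ripe fruit, against 1399, 1504 and 1471 TPM in ‘1B’ unripe fruit. In ‘RB1’ it stood at 819 and 745 TPM in ripe fruit, with 1178 TPM in replicate 3, against 1136, 1133 and 1129 TPM in unripe fruit. On this scale all 3 ‘1B’ ripe libraries lay above ‘RB1’ ripe replicates 1 and 2, and limma gave a log2 difference of 0.39 (adjusted p = 0.0205), a fall in ‘1B’ ripening of −0.51 (adjusted p = 0.00197) and a difference between the ripening responses of 0.03 (adjusted p = 0.862). Relative to the median transcript of each library, the effective length of i1 hardly varied (largest over smallest 1.0002). The sums of TMM-scaled TPM ran from 735737 to 1357940. How far this scale departs from CPM between libraries through its scaling, and how far through the lengths of other transcripts, was not tested. The gene ranked 35th to 50th of all genes by TPM in every library. Its TPM was 86.2, 113 and 104 times that of the terpene synthase gene in ‘1B’ unripe fruit, and 8.12 to 13.8 times in ‘1B’ ripe, 8.23 and 10.6 times in ‘RB1’ ripe replicates 1 and 2 and 10.3 to 11.2 times in ‘RB1’ unripe fruit. In ‘RB1’ ripe replicate 3 the ratio was 3.4.

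Within the benzoyltransferase gene, 1 isoform changed far more than the sum. Isoform i3 stood at 248, 239 and 258 CPM in ‘1B’ ripe fruit, against 1.66, 0.864 and 1.22 CPM in ‘1B’ unripe fruit. In ‘RB1’ it stood at 626 and 485 CPM in ripe replicates 1 and 2, against 10.9, 12.2 and 13.7 CPM in unripe fruit. The groups did not overlap in either variety. ‘RB1’ ripe replicate 3 held 4.30 CPM of i3, below every ‘RB1’ unripe library.

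DN4842_c0_g1_i3 rose 214-fold with ripening in ‘1B’ (log2 fold change 7.74, SE 0.27, adjusted p = 0.000106, edgeR over all isoforms) and 44.8-fold in ‘RB1’ (5.49, SE 0.18, adjusted p = 0.00324). The expected counts behind these values were 19612, 21108 and 18693 in ‘1B’ ripe libraries against 61.5, 33 and 43.9 in ‘1B’ unripe libraries, and 31180 and 6261 in ‘RB1’ ripe replicates 1 and 2 against 215, 680 and 739 in ‘RB1’ unripe libraries. The 2 responses differed by 2.44 (SE 0.31, adjusted p = 0.000936). With ‘RB1’ ripe replicate 3 kept, neither the rise in ‘RB1’ (4.91, adjusted p = 0.488) nor the difference between the responses (2.86, adjusted p = 0.318) was called. With that library, 0 of all 62803 isoforms were called in ‘RB1’ ripening and 4.69% in the interaction. On limma's log2(TPM + 1) scale the difference between the responses was 1.48, just under the fold threshold.

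Between varieties, i3 was 10.2-fold lower in ‘1B’ than in ‘RB1’ unripe fruit (DN4842_c0_g1_i3: log2 fold change −3.35, SE 0.28, adjusted p = 0.00104, edgeR). In ripe fruit it was 2.06-fold lower in ‘1B’ (−1.04, SE 0.19, adjusted p = 0.0304), which is under the fold threshold, and with ‘RB1’ ripe replicate 3 kept the value was −0.60 (adjusted p = 0.858). Each ‘1B’ library thus lay below the ‘RB1’ libraries of its stage, apart from ‘RB1’ ripe replicate 3.

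**Figure D4:**
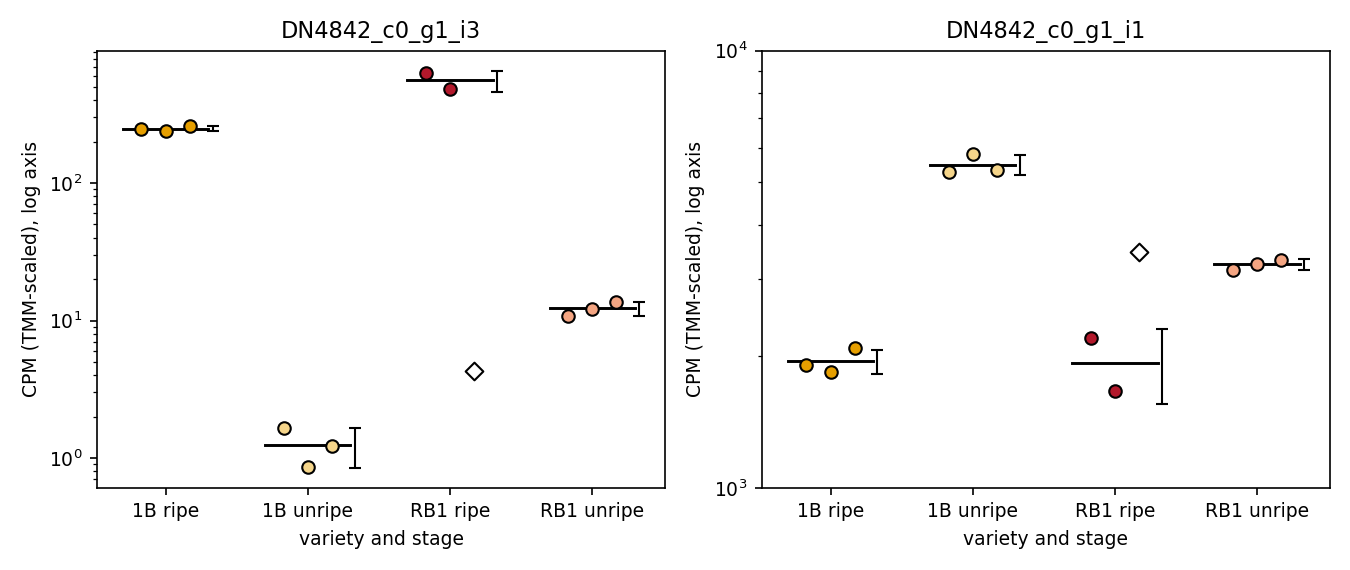
Isoforms i3 (left) and i1 (right) of the benzoyltransferase gene in TMM-scaled CPM on log axes with different ranges, by variety and stage. Points are libraries, lines are means, bars are SD and the open diamond is ‘RB1’ ripe replicate 3, left out of mean and SD. Isoform i3 spans 0.864 to 626 CPM and i1 spans 1668 to 5809 CPM.

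Isoform i1, the one named in the study's annotation, made up nearly all the rest of the gene. It stood at 1912, 1844 and 2084 CPM in ‘1B’ ripe fruit, against 5290, 5809 and 5347 CPM in ‘1B’ unripe fruit. In ‘RB1’ it stood at 2199 and 1668 CPM in ripe fruit, with 3473 CPM in replicate 3, against 3153, 3254 and 3329 CPM in unripe fruit. DN4842_c0_g1_i1 was 2.62-fold lower in ripe than in unripe ‘1B’ fruit (log2 fold change −1.39, SE 0.07, adjusted p = 0.000246, edgeR) and 1.63-fold higher in ‘1B’ than in ‘RB1’ unripe fruit (0.70, SE 0.06, adjusted p = 0.00123), both under the fold threshold, where 29.3% and 21.1% of all isoforms passed on p alone. Scaled by library size alone, these were −0.44 (adjusted p = 0.00554) and 0.18 (adjusted p = 0.12). With ripening in ‘RB1’ the log2 fold change was −0.76 (adjusted p = 0.0562). Between varieties in ripe fruit the log2 fold change of i1 was 0.13 (adjusted p = 0.746, edgeR), and the groups overlapped. The study had listed i1 for a difference between these ripe libraries. By the study's qPCR, cpBAO, the target with the annotation of i1, was not among the genes with a significant difference in ripe fruit.

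Shares do not depend on the scaling between libraries. Isoform i3 held 11.5, 11.4 and 11% of the gene's counts in ‘1B’ ripe fruit, against 0.0314, 0.0149 and 0.0228% in ‘1B’ unripe fruit. In ‘RB1’ it held 22.1 and 22.5% in ripe replicates 1 and 2, against 0.343, 0.374 and 0.409% in unripe fruit. In ‘RB1’ ripe replicate 3 it held 0.124% (0.109 to 0.14%, Wilson, 95%). The shares of a group lay close together and those of different groups far apart, and only ‘RB1’ ripe replicate 3 lay away from its label. Isoform i2 held 0.0665 to 0.188% in every library and was not called in any comparison.

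The usage test for DN4842_c0_g1_i3 gave log2 differences from its gene of 8.96 with ripening in ‘1B’ (adjusted p = 8.39e-13, diffSpliceDGE), 5.89 with ripening in ‘RB1’ (adjusted p = 5.56e-08) and −4.05 for ‘1B’ against ‘RB1’ in unripe fruit (adjusted p = 1.14e-06). In those tests 6.31%, 1.18% and 7.38% of all isoforms passed. In ripe fruit, where 7.54% passed, the difference was −0.98 (adjusted p = 0.133), and it passed with a filter of 1 CPM in 2 libraries (adjusted p = 0.0112). The test of the whole gene passed in ripe fruit (adjusted p = 0.0171), as 28.7% of genes did, but not with ‘RB1’ ripe replicate 3 kept (1) or without ‘1B’ ripe replicate 1 (0.0729) or 3 (0.0569). With ‘RB1’ ripe replicate 3 kept, the value for ripening in ‘RB1’ did not pass (adjusted p = 0.0614).

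**Figure D5:**
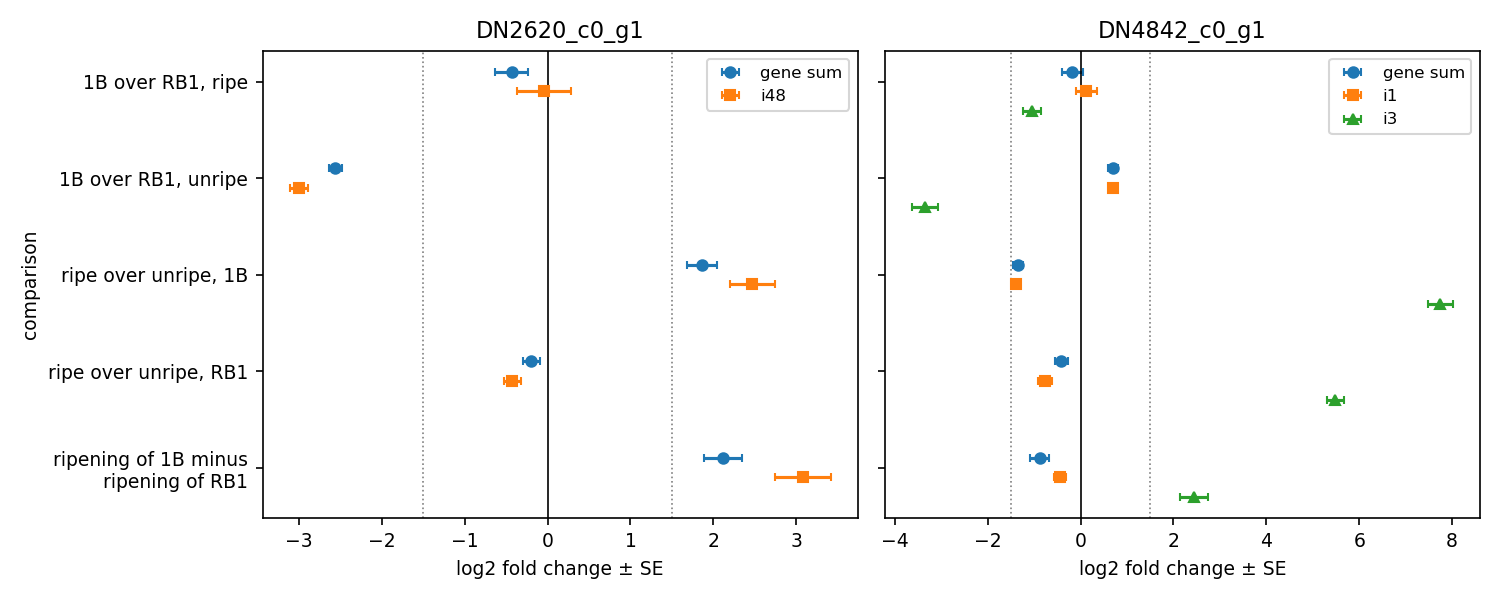
Log2 fold changes with SE of the gene sums and main isoforms in the 5 comparisons; dotted lines mark ±1.5, and the axes of the 2 genes have different ranges. In the terpene synthase gene (left) i48 has the sign of the gene sum in each comparison, at 3.08 beside 2.12 in the interaction. In the benzoyltransferase gene (right) i3 lies at 7.74 and 5.49 with ripening while the gene sum lies at −1.34 and −0.42.

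The substrates of the terpene synthases come from the terpenoid backbone, and 11 genes of that pathway are in the study's list of transcripts related to sugars and volatiles. The study chose that list on these libraries for differences in ripe fruit, so its counts there are not independent evidence. In ripe fruit 1 of 11 was called higher in ‘1B’ and 4 lower, and in unripe fruit none was called higher by edgeR and 3 were lower, against 29.5% and 15.1% of all genes. In unripe fruit 4 were higher on adjusted p alone, and DESeq2 called 3 in all. With ripening, 3 were higher and 2 lower in ‘1B’, and 2 higher and 1 lower in ‘RB1’, against 25.8% and 19.3%. The median log2 fold change of the 11 genes was −0.17 in ripe fruit and −0.54 in unripe fruit, beside 0.314 and −0.0669 over all genes. In ‘1B’ ripening it was −0.29 and in ‘RB1’ ripening 0.43, beside 0.215 and −0.0819.

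Monoterpene and diterpene precursors come from the plastid branch, which opens with 1-deoxy-D-xylulose-5-phosphate synthase. TRINITY_DN6873_c0_g1 (DXPS2), a gene for that enzyme, stood at 339, 304 and 277 CPM in ‘1B’ unripe fruit, against 924, 958 and 881 CPM in ‘RB1’ unripe fruit (log2 fold change −1.64, adjusted p = 1.29e-12, edgeR), the direction of the terpene synthase gene. In ‘1B’ it was higher in ripe fruit by 1.29, under the fold threshold. Between varieties in ripe fruit its log2 fold change was −0.73 (adjusted p = 0.00412, edgeR), under the fold threshold, where 55.4% of genes passed on p alone. For TRINITY_DN619_c0_g1, which also holds transcripts listed for this enzyme, it was −0.17 (adjusted p = 0.392). The study, which tested single transcripts, reported those of this enzyme as higher in ‘1B’. Hydroxymethylbutenyl diphosphate synthase, a late step of the branch, fell with ripening in ‘RB1’ (−1.66) and, under the fold threshold, in ‘1B’ (−1.36).

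In the mevalonate branch, the cytosolic acetyl-CoA acetyltransferase 1-like gene, whose enzyme joins acetyl-CoA units, was lower in ‘1B’ in ripe (−3.08) and unripe fruit (−3.80) and rose with ripening in both ‘1B’ (2.31) and ‘RB1’ (1.65). Cytosolic acetyl-CoA acetyltransferase 2 and diphosphomevalonate decarboxylase (MVD2) were lower in ‘1B’ ripe fruit (−2.25 and −1.78) and fell with ripening in ‘1B’ (−1.75 and −1.94). Farnesyl diphosphate synthase (FPS1) rose with ripening in ‘1B’ (1.61) and in ‘RB1’ (2.31). Among prenyl lipid and protein enzymes, solanesyl diphosphate synthase (SPS3) was lower in ‘1B’ ripe fruit (−1.99), and farnesylcysteine lyase (FCLY) was higher in ‘1B’ ripe fruit (1.69), lower in ‘1B’ unripe fruit (−1.91) and higher with ripening in ‘1B’ (2.78). With ‘RB1’ ripe replicate 3 kept, an alternative added after seeing the data, 3 list genes were called in ripe fruit and 1 in ‘RB1’ ripening. In those fits 14.4% and 1.18% of all genes were called.

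Likeness of pattern was measured as Pearson's r of log2 CPM over the 11 libraries without ‘RB1’ ripe replicate 3. These points share their groups and the TMM scaling, so r is a description. Among 74 genes of the study's list, the terpene synthase gene was most like TRINITY_DN619_c0_g1 (r = 0.967), whose listed transcripts carry the names cell division cycle 5-like protein and 1-deoxy-D-xylulose-5-phosphate synthase, then DXPS2 (0.964) and a probable trehalose-phosphate phosphatase D (0.935). Of 13689 genes with a mean of at least 1 CPM, TRINITY_DN430_c0_g1 had the highest r, 0.995, and 200 were above 0.9. With all 12 libraries r for DXPS2 was 0.834.

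The benzoyltransferase gene was most like aldehyde dehydrogenase family 3 member H1 (r = 0.959), alcohol dehydrogenase class-P (0.955) and mitochondrial aldehyde dehydrogenase family 2 member B4 (0.953), enzymes that interconvert alcohols, aldehydes and acids. Among all genes TRINITY_DN9_c2_g1 had the highest r, 0.992, and 987 were above 0.9. The terpene synthase and benzoyltransferase genes had r = −0.743 with each other over the 11 libraries and −0.55 over all 12.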

How the data were processed

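RNA of fruit flesh from 3 fruits of each variety and stage was sequenced (Illumina, paired ends). Per the labels and the study's methods, reads were cleaned with bbduk, Trimmomatic 0.40 and FastQC 0.11.9, assembled de novo with Trinity into 1 transcriptome and quantified per transcript with Salmon. The authors deposited expected counts, not normalized, and a signal table of TPM that they scaled by TMM across the 12 libraries. Reads shared between isoforms are estimates, and no genome was used.

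Expected counts were rounded, after adding up a gene's isoforms for gene sums. In edgeR 4.0.16 under R 4.3.3, low features were removed by filterByExpr, libraries were scaled by TMM, and a quasi-likelihood model was fitted to only the groups of each comparison, or to 11 libraries for the interaction. Calls had a log2 fold change beyond ±1.5 and an adjusted p below 0.05; the SE is the fold change over the root of F. Isoform usage was tested with diffSpliceDGE. The steps were tested on simulated data. Replicates differed by more than counting noise, and same-numbered replicates did not deviate together (r of −0.186 to 0.031), so no pairing was used. Members, lists and tests were chosen with earlier results of these data known. Library values were printed for gene sums, for isoforms in the study's table and for isoforms with a mean share of at least 10% in a group, and the 3 listed genes and 1 gene overall with the highest r; other isoforms are named after their values were seen.

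Alternatives were ‘RB1’ ripe replicate 3 kept, 1 fit for all groups, other filters, DESeq2 1.42.0, RLE factors, library size only, a median of 0, limma 3.58.1 on log2(TPM + 1) or + 0.1, no fold threshold, a replicate block, and each library left out. Assembled sequences were not analysed here.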

Additional observations from a re-analysis of the deposited data

Results flagged for a closer look

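The ripening response of several features differed between varieties by the interaction test of edgeR, in which ‘1B’ ripening minus ‘RB1’ ripening is on the log2 scale and 33.2% of genes and 8.9% of isoforms were called. The gene sum of DN2620_c0_g1 differed by 2.12 (adjusted p = 1.73e-09) and that of DN4842_c0_g1 by −0.884 (adjusted p = 0.000512). Among isoforms, DN2620_c0_g1_i32 differed by 3.57 (adjusted p = 0.00287), DN2620_c0_g1_i48 by 3.08 (adjusted p = 0.000413) and DN4842_c0_g1_i3 by 2.44 (adjusted p = 0.000936). In the terpenoid backbone, farnesylcysteine lyase (FCLY) differed by 3.58 (adjusted p = 2.3e-15), cytosolic acetyl-CoA acetyltransferase 2 by −3.07 (adjusted p = 9.23e-16) and diphosphomevalonate decarboxylase (MVD2) by −2.68 (adjusted p = 1.26e-14).

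‘RB1’ ripe replicate 3, which the comparisons left out, held 1060 CPM of DN2620_c0_g1, against at most 305 CPM in ‘RB1’ unripe libraries, and 3480 CPM of DN4842_c0_g1, against at most 3347 CPM there. Its isoform i3 of DN4842_c0_g1 was at 4.30 CPM, below the ‘RB1’ unripe libraries, while its DN2620_c0_g1 level was above both stages.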

How the results depend on the processing

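The replicate numbers do not pair the fruits, a tested comparison with ‘RB1’ ripe fruit rests on 2 libraries, and the split of reads between isoforms and between the loci under DN2620_c0_g1 is an estimate. Where a value changed, the cause was not tested unless named. The called changes of the DN2620_c0_g1 gene sum in unripe fruit kept their call in all 12 alternatives and without each library (−3.08 to −2.49). Of 371 alternative values of 21 single isoform results, 328 kept their direction and side of the threshold, 38 lost the call, 5 gained it and none reversed. All 21 had an adjusted p under 0.05 in the comparisons above, so a reversal was unlikely from the start. The differences of i44 and i26 between varieties could not reverse, since each isoform was found in no library of the other variety.

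With ‘RB1’ ripe replicate 3 kept, the DN2620_c0_g1 change was 0.86 in ‘RB1’ ripening (reversed), 1.04 in the interaction and −1.49 in ripe fruit. Isoform calls of the genes were 0 in ‘RB1’ ripening, where 0 of all 62803 isoforms were called. They were 0 in the interaction, where 4.69% of all isoforms were called. The usage test passed 0 isoforms of the genes in ‘RB1’ ripening. In ripe fruit and in ‘RB1’ ripening, 3 and 1 pathway genes were called, against 14.4% and 1.18% of all genes. With library size only, the DN2620_c0_g1 change was 0.027 in ‘RB1’ ripening and the DN4842_c0_g1 change 0.10 in ripe fruit (both reversed). Under it 10 isoforms were called in ‘1B’ ripening, against 30.7% of all isoforms, and 6 pathway genes in the interaction, against 43.7% of all genes. That scaling also moved the split of all gene calls in ‘1B’ ripening to 12594 higher and 1086 lower, beside 4540 and 2952 with TMM, in unripe fruit to 1102 and 3605, beside 1881 and 1744, in ripe fruit to 8600 and 3085, beside 6160 and 3985, in ‘RB1’ ripening to 3301 and 1766, beside 2691 and 2376, and in the interaction to 13492 and 2491, beside 7378 and 4766. The DN4842_c0_g1 change in ripe fruit also reversed with a filter of 1 CPM in 2 libraries (0.043). On the TPM scale with limma and pseudocounts of 1 and 0.1, DN2620_c0_g1 in ripe fruit was 0.10 (0.098303, 0.098836), DN4842_c0_g1 in ripe fruit 0.39 (0.38921, 0.38961) and its interaction 0.03 (0.026274, 0.026413), all reversed; with a pseudocount of 1, 1 isoform was called in ripe fruit, with or without the filter, and i44 and i26 fell under the fold threshold in unripe fruit, i26 in ripe fruit and i44 in ‘1B’ ripening. With no fold threshold DN4842_c0_g1 was called in unripe fruit (0.70), in the interaction (−0.88), in ‘1B’ ripening (−1.34) and in ‘RB1’ ripening (−0.42); with the median of all genes set to 0, it was called in ‘1B’ ripening (−1.56), and 4 isoforms were called in ripe fruit. DESeq2 called 2 isoforms in ‘RB1’ ripening, where it called 14% of all isoforms. The filter of 1 CPM left 1 isoform with changed usage in unripe fruit and 2 in ‘1B’ ripening, beside 3 and 1.

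The replicate block called 0 isoforms of the genes in ripe fruit, 3 in unripe fruit and 0 in ‘RB1’ ripening, beside 2, 7 and 1, and i26, i32, i44 and i57 were those not called in unripe fruit (adjusted p of 0.153, 0.0606, 0.198 and 0.082); over all isoforms it called 0 of 88526 in ripe fruit and 0 of 70809 in ‘RB1’ ripening. It changed no call of a gene sum, although DN2620_c0_g1 in ripe fruit passed on p alone (−0.77, adjusted p = 0.00734).

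Leaving out 1 library at a time gave DN2620_c0_g1 changes of 1.499 to 2.02 in ‘1B’ ripening and DN4842_c0_g1 changes of −0.42 to 0.088 in ripe fruit, where the sign turned without ‘RB1’ ripe replicate 1. Isoform calls were 0 to 4 in ripe fruit, with 1 without ‘RB1’ ripe replicate 1, 0 without ‘1B’ ripe replicate 1 and 4 without ‘1B’ ripe replicate 3. Usage calls were 1 to 6 in ripe fruit (1 without ‘RB1’ ripe replicate 1, 6 without replicate 2), 1 to 3 in unripe fruit (1 without ‘RB1’ unripe replicate 1 or 2 or ‘1B’ unripe replicate 1) and 1 to 3 in ‘1B’ ripening (3 without ‘1B’ unripe replicate 3). With 1 ‘RB1’ ripe library left, it was assumed to vary like the other group.

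Shares taken from TPM in place of counts moved by more than 1 SD for i31 in ‘1B’ ripe (7.45%), i44 in ‘1B’ ripe and unripe (2.10 and 2.89%), i48 in ‘1B’ ripe, ‘1B’ unripe, ‘RB1’ ripe and ‘RB1’ unripe (64.5, 46.3, 54.4 and 63.7%) and i57 in the same groups (5.32, 10.8, 10.2 and 8.26%). For DN4842_c0_g1 they moved in ‘1B’ ripe and ‘RB1’ ripe fruit for i1 (87.5 and 75.9%) and i3 (12.3 and 24.0%), and for i3 in ‘RB1’ unripe fruit (0.411%); shares from TPM differ from those from counts by construction, through the isoforms' lengths.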
